A study of Mus musculus with 3 samples.

Results

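Osteoblasts and their precursors decide, through a small set of secreted and membrane proteins, how many bone-resorbing osteoclasts form around them. The 6 genes described here encode such factors in mouse MC3T3-E1 cells: Tnfrsf11b (osteoprotegerin, OPG), Tnfsf11 (RANKL), Csf1 (macrophage colony-stimulating factor, M-CSF), Il34 (interleukin 34), Sema3a (semaphorin 3A) and Pth1r (the parathyroid hormone receptor). They were chosen by name and by no threshold on their values, but with earlier results of these data known. Of the 6 genes, 5 were listed among the 15287 genes of the expression table, and 4 reached the level of 1 FPKM (fragments per kilobase of transcript, scaled to the depth of the library) in at least 1 library, as 11137 genes did in all. Tnfsf11 was not listed and has no value here, and Pth1r stayed below 1 FPKM in every library. No listed gene was at 0 in every library, so whether Tnfsf11 was undetected or left out otherwise cannot be told.

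RANKL binds its receptor RANK on osteoclast precursors and drives them to become osteoclasts, while OPG is a secreted decoy receptor that captures RANKL and keeps it from RANK. M-CSF and IL-34 are distinct ligands of one receptor, CSF1R, and keep the precursors alive and dividing. Semaphorin 3A, secreted by osteoblasts, acts through neuropilin 1 and A-type plexins to restrain osteoclast formation and to favour bone formation, and parathyroid hormone acting on PTH1R in osteoblasts is known to increase Tnfsf11 and to decrease Tnfrsf11b.

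The study asked how selenomethionine (Se-Met), an organic form of selenium, affects osteoblasts exposed to titanium wear particles of the kind that loosen joint implants. MC3T3-E1 is a clonal preosteoblast line from mouse calvaria. One RNA-seq library was made for each of 3 conditions: cells with no special treatment (CTL), cells exposed for 24 h to titanium particles, 10 μg on each square centimetre (Ti), and cells given the same particles together with 5 μM Se-Met for 24 h (Ti+Se-Met). No library held Se-Met without particles. Where 3 levels follow each other with no label, they stand for CTL, Ti and Ti+Se-Met in that order. With 1 library per condition no difference below has a replicate check, and no p-value is given.

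The deposited values held no fragment counts. From the steps that single fragments leave in short genes, the libraries were estimated at 14100000 (CTL), 14700000 (Ti) and 10500000 (Ti+Se-Met) fragments, and from these depths a 95% interval was set on each level (exact Poisson) and on each fold (exact binomial). No interval here holds more than counting error, so each compares libraries and not the conditions behind them. Differences are given as folds of FPKM, and as log2(FPKM + 1) differences wherever genes are counted past 2-fold. The latter understate the change of genes at low levels. In RNA from whole cultures, fewer cells of a type and less RNA per cell cannot be told apart.

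The label of the cells was checked against marker genes. All 12 osteoblast lineage markers were listed, and 8, 7 and 7 of them reached 1 FPKM in the CTL, Ti and Ti+Se-Met libraries. Sp7, Ibsp, Bglap and Phex stayed below 1 FPKM in every library, at 0.80 or less. Alpl was 1.51 FPKM in CTL and 0.20 in both libraries with particles. Of 12 osteoclast lineage markers 10 were listed and 4 reached 1 FPKM in each library (Ctsk, Mmp9, Itgb3 and Nfatc1). The defining genes Tnfrsf11a, Csf1r, Acp5, Oscar, Ocstamp and Atp6v0d2 lay between 0 and 0.10 FPKM. Of 12 macrophage and blood markers 5 were listed and 2 (Cd14 and Lyz2) reached 1 FPKM, while Ptprc, the pan-leukocyte gene, was not listed.

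For orientation, the RefSeq promoter windows of the genes with the highest levels are printed 5′ to 3′ on the gene's strand. Each holds 250 bases before and 50 after an annotated start in build GRCm38.p6. The Sema3a window lies at chr5:13396534-13396833 on the plus strand and the Csf1 window at chr3:107760420-107760719 on the minus strand. Capitals mark matches, on either strand, to the core of the TCF/LEF motif (CTTTG) or of the RUNX motif (TGTGGT).
Sema3a: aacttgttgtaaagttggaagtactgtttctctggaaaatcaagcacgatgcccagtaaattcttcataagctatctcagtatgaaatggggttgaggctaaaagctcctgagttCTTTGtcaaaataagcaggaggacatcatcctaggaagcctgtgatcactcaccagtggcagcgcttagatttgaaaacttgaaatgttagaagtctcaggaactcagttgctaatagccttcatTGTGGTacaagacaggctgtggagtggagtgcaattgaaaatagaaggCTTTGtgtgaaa
Csf1: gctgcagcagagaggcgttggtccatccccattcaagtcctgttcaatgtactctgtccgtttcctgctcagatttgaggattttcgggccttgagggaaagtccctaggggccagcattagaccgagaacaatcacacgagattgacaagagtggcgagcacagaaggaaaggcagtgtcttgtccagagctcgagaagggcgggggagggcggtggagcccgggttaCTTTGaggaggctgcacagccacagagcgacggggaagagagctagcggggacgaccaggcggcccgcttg

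The Sema3a window had 41.3% G and C bases and 2 CpG pairs, against 58.7% and 16 in the Csf1 window and a median of 52.7% G and C over all windows. Sema3a held CTTTG at bases 116 to 120 and 289 to 293 and TGTGGT at bases 241 to 246, counted from the first base printed. Csf1 held CTTTG at bases 230 to 234. Such matches are common: CTTTG or its complement was found in 53.9% of 32851 windows and TGTGGT in 16.8%. Neither window held TGANTCA (AP-1, 7.81% of windows) or TGACGTCA (the cAMP response element, 1.79%). A match describes the letters and says nothing of whether a factor was bound, and which start the cells used was not measured.

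The 5 listed genes kept one order of levels in all 3 libraries, with Csf1 highest, then Sema3a, Tnfrsf11b, Il34 and Pth1r. Csf1 stood above 97.0% of listed genes in CTL, and Pth1r above 26.6%. The intervals of neighbours in this order overlapped once, in the Ti library, where Tnfrsf11b (7.51 to 9.35 FPKM) and Il34 (5.58 to 7.7 FPKM) lay close together.

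**Figure D1:**
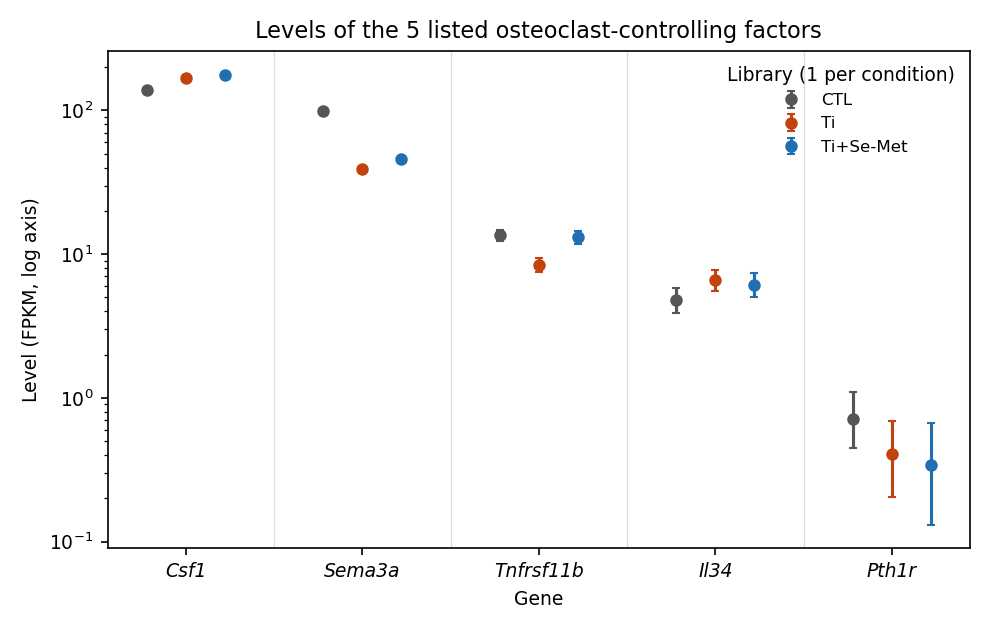
Levels of the 5 listed genes in FPKM on a log axis, 1 point per library, with 95% counting intervals as bars where they are wider than the point. Sema3a was 98.87 FPKM in CTL against 39.01 and 45.83 in the libraries with particles, and Tnfrsf11b was low only in Ti, at 8.38 FPKM.

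Among the 4 genes above 1 FPKM, 1 was at least 2-fold lower in Ti than in CTL and 0 were at least 2-fold higher. Over all genes, 3.64% were at least 2-fold lower (405 genes) and 3.63% higher (404 genes) in that comparison. With each library rescaled to the same FPKM sum (the TPM scale), 864 were lower and 233 higher. Between Ti+Se-Met and Ti, 0 of the 4 passed 2-fold, where 0.162% of all genes were higher and 0.0629% lower. Between Ti+Se-Met and CTL, 1 of the 4 was at least 2-fold lower and 0 were higher, against 3.32% and 2.64% of all genes. The gene that passed was Sema3a in both comparisons, which share the CTL library. The median log2 difference over all genes was 0.08 for Ti against CTL, −0.06 for Ti+Se-Met against Ti and 0.01 for Ti+Se-Met against CTL. On the TPM scale these medians became −0.14, −0.04 and −0.17, so the values of the 4 genes are also given relative to the median.

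Of the decoy receptor and its ligand, the decoy receptor alone could be read. Tnfrsf11b measured 13.59 FPKM in CTL (95% interval 12.4 to 14.8), 8.38 in Ti (7.51 to 9.35) and 13.14 with Se-Met (11.8 to 14.5). The Ti library was low, and the levels of the other 2 lay within each other's intervals. These levels rest on an estimated 511, 329 and 368 fragments.

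In Ti, Tnfrsf11b stood at 0.617 of its CTL level (0.536 to 0.711). With Se-Met it was 1.57-fold its Ti level (1.35 to 1.82). Both differences exceeded counting error but not 2-fold. Ti+Se-Met against CTL gave 0.967 (0.843 to 1.11), an interval that includes equal levels, although on the TPM scale it was 0.842 (0.735 to 0.965). Relative to the median of all genes, the log2 differences were −0.71 for Ti against CTL, 0.65 for Ti+Se-Met against Ti and −0.06 for Ti+Se-Met against CTL. On the TPM scale the same 3 were −0.75, 0.68 and −0.07. Its Ti+Se-Met-to-Ti difference of 0.59 lay above the 95th percentile of all genes, which was 0.33. Its Ti-to-CTL difference of −0.64 lay between the 5th and 95th percentiles of all genes (−0.88 and 0.91). Both differences share the 1 Ti library, so a low value there enters both. With Tnfsf11 unlisted, the RANKL-to-OPG ratio could not be formed in any library.

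The ligands of CSF1R differed less between libraries. Csf1 was among the most abundant genes, at 138.13 FPKM in CTL, 167.82 in Ti and 176.03 with Se-Met, or an estimated 5664, 7174 and 5375 fragments. Both libraries with particles lay above CTL. The folds were 1.21 (1.17 to 1.26) for Ti against CTL, 1.05 (1.01 to 1.09) for Ti+Se-Met against Ti and 1.27 (1.23 to 1.32) for Ti+Se-Met against CTL. As TPM the first was 1.04 (1.0 to 1.07) and the last 1.11 (1.07 to 1.15). Relative to the median of all genes, the log2 differences for the same 3 comparisons were 0.20, 0.13 and 0.33 as deposited and 0.19, 0.14 and 0.32 as TPM.

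Il34 was far scarcer, at 4.80 FPKM in CTL (3.92 to 5.77), 6.56 in Ti (5.58 to 7.7) and 6.13 with Se-Met (5.0 to 7.42). The CTL library was the lowest, with intervals that overlap those of both others. Ti against CTL gave 1.37 (1.07 to 1.78) as deposited but 1.16 (0.912 to 1.51) as TPM, which includes equality. Ti+Se-Met against Ti gave 0.934 (0.718 to 1.2) and Ti+Se-Met against CTL 1.28 (0.968 to 1.69), so neither was told from equality at this depth. Relative to the median of all genes, the log2 differences were 0.30, −0.02 and 0.28 as deposited and 0.34, −0.03 and 0.31 as TPM, in the same order of comparisons. Exons of Il34 share 22 and 75 bases with Gm15894 and Gm15895 on the opposite strand. Neither is listed, and since the library was not stated to be strand-specific their reads cannot be told from those of Il34.

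A quotient of levels within a library does not depend on scaling between libraries. Csf1 was 28.8 times Il34 in CTL (23.9 to 35.3), 25.6 times in Ti (21.8 to 30.1) and 28.7 times in Ti+Se-Met (23.7 to 35.3). These 3 intervals overlap, so no shift from one CSF1R ligand to the other was seen beyond counting error. Csf1 was 10.2 times Tnfrsf11b in CTL (9.29 to 11.2), 20 times in Ti (17.9 to 22.4) and 13.4 times in Ti+Se-Met (12.1 to 14.9). That quotient was highest in Ti, where Tnfrsf11b was low, and its 3 intervals did not overlap. M-CSF acts on CSF1R and OPG on RANKL, so the quotient describes transcript levels only.

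Against CTL, Sema3a differed most among the 4 genes. It measured 98.87 FPKM in CTL, 39.01 in Ti and 45.83 with Se-Met, on an estimated 6772, 2786 and 2338 fragments. Both libraries with particles were low, and the one with Se-Met lay nearer to Ti than to CTL. In Ti the level was 0.395 of CTL (0.377 to 0.412), which is 2.53-fold lower, and in Ti+Se-Met 0.464 of CTL (0.442 to 0.486), or 2.16-fold lower. Ti+Se-Met against Ti gave 1.17 (1.11 to 1.24).

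Relative to the median of all genes, the log2 differences of Sema3a were −1.40, 0.29 and −1.11 for Ti against CTL, Ti+Se-Met against Ti and Ti+Se-Met against CTL. As TPM they were −1.42, 0.30 and −1.13. Sema3a and Tnfrsf11b, both restraining factors, were thus both lower in Ti than in CTL, while with Se-Met Tnfrsf11b stood at 0.967 of its CTL level and Sema3a at 0.464. The Sema3a-to-Tnfrsf11b quotient was 7.28 in CTL (6.65 to 7.98), 4.66 in Ti (4.15 to 5.23) and 3.49 in Ti+Se-Met (3.12 to 3.91). The intervals of the 3 quotients did not overlap, so the genes differed by unequal factors.

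The summed level of the osteoblast markers was low in both libraries with particles, as Sema3a was and Tnfrsf11b was not, at 7620.73 FPKM in CTL, 2264.27 in Ti and 2731.44 with Se-Met, most of it collagen and periostin. Of this list Postn, a matrix protein of periosteum, was 2904.07, 419.52 and 446.61 FPKM. Col1a1, the main bone collagen chain, was 1333.19, 354.20 and 481.63 FPKM. All of these were highest in CTL, as were 2 further genes of the list that passed 2-fold. Col1a2, the partner chain, was 2688.49, 998.91 and 1256.60 FPKM. Alpl, bone alkaline phosphatase, was 1.51, 0.20 and 0.20. The other markers of the list above 1 FPKM stayed short of 2-fold on the log2(FPKM + 1) scale. With Se-Met, Sparc lay nearer to Ti than to CTL, at 649.22, 461.86 and 507.94 FPKM. Nearer to CTL, as Tnfrsf11b was, lay Runx2 (26.77, 17.14 and 22.97), Dlx5 (12.34, 9.34 and 11.16) and Bglap2 (3.76, 1.51 and 2.98). Bglap2 rests on an estimated 17, 7 and 10 fragments. The part of these markers in the values of Sema3a and Tnfrsf11b was not tested. Summed osteoclast markers were 42.76, 51.79 and 55.22 FPKM, and summed macrophage and blood markers 32.67, 31.69 and 27.65. Within these sums single genes ran in opposite directions. Mmp9, a matrix protease, was 9.48, 1.46 and 1.95 FPKM. Nfatc1, a transcription factor of osteoclast formation, was 7.81, 13.50 and 16.72. Cd14, a lipopolysaccharide co-receptor, was 5.70, 16.56 and 14.81. Mmp9 was thus highest in CTL and both others lowest there. Lyz2, a lysozyme, was 26.72, 14.76 and 12.42 FPKM. Osteocyte markers, of which 3 of 5 were listed, summed to 89.53, 148.62 and 160.72 FPKM. Dmp1, a matrix protein of osteocytes, was 0.45, 3.64 and 13.85 FPKM. Endothelial, adipocyte and epithelial markers, 5 of 10 listed, summed to 6.51, 3.50 and 5.95.

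Pth1r was close to the limit of detection, at 0.71 FPKM in CTL (0.446 to 1.1), 0.41 in Ti (0.204 to 0.689) and 0.34 with Se-Met (0.13 to 0.664). These levels rest on an estimated 21, 12 and 7 fragments. The intervals overlap across all 3 libraries. Ti against CTL gave 0.577 (0.246 to 1.17), Ti+Se-Met against Ti 0.829 (0.272 to 2.25) and Ti+Se-Met against CTL 0.479 (0.161 to 1.09), so no difference was detectable at this depth on the deposited scale. As TPM, Ti+Se-Met against CTL was 0.417 (0.14 to 0.952) and Ti against CTL 0.492 (0.209 to 0.994), with intervals that both exclude equality, the second narrowly. With the other scalings both intervals included equality. For Ti+Se-Met against CTL they were 0.163 to 1.11 (median of ratios) and 0.154 to 1.04 (upper quartile). For Ti against CTL they were 0.238 to 1.13 and 0.229 to 1.09. Exons of Pth1r share 95 bases with Myl3 on the opposite strand, which is not listed.

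**Figure D2:**
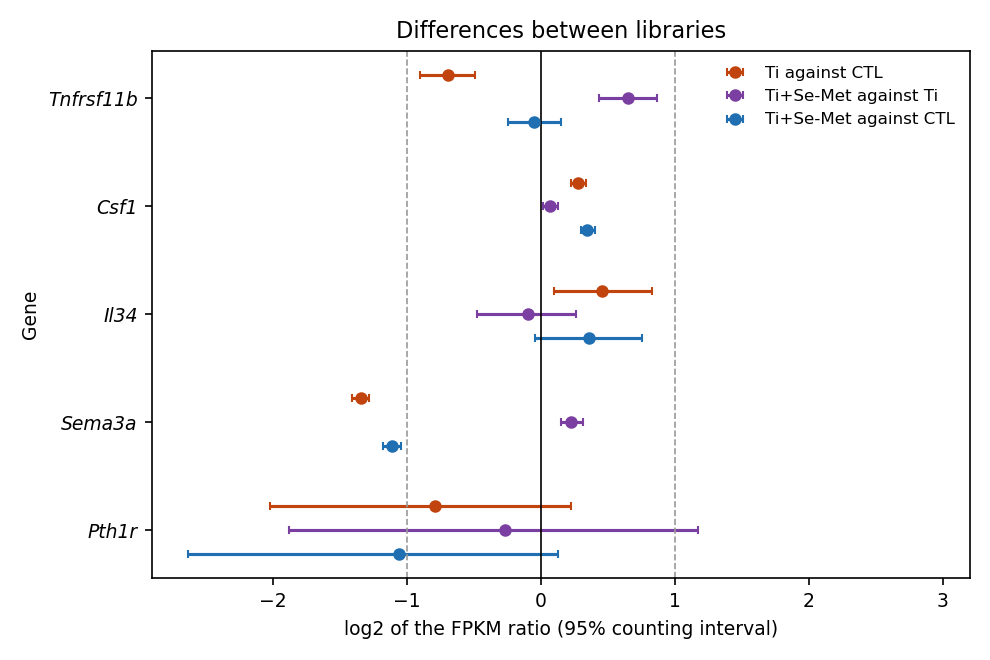
Log2 of the FPKM ratio between pairs of libraries for the 5 listed genes, with 95% counting intervals. Dashed lines mark 2-fold. Sema3a lay past 2-fold in Ti and in Ti+Se-Met against CTL (0.395 and 0.464 of CTL). Tnfrsf11b was below equality for Ti against CTL (0.617) and above it for Ti+Se-Met against Ti (1.57). The intervals of Pth1r all include equality.

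The receptors, co-receptors and partners of the 6 proteins formed a list of 16 genes, of which 13 were listed in the table and 11 passed 1 FPKM. Of these 11, Ramp3 (higher) and Ramp2 (lower) passed 2-fold in Ti against CTL, 1 in each direction, with a median log2 difference of −0.32 (all genes 0.08). Ti+Se-Met against Ti brought none past 2-fold (median 0.0), and the same split of 1 higher and 1 lower held for Ti+Se-Met against CTL (median −0.24). Tnfrsf11a, which encodes RANK, was 0.01 FPKM in CTL and listed at 0 in both others, and Csf1r was 0.02, 0.07 and 0.10 FPKM. Both were thus near 0 in these cultures. Ptprz1, a second receptor of IL-34, was not listed. Lgr4, a further receptor of RANKL, was 9.09 FPKM in CTL, 7.35 in Ti and 7.14 with Se-Met, or 0.809 of CTL in Ti (0.72 to 0.91). Sdc1, a heparan sulphate proteoglycan that binds IL-34, was 88.49, 70.71 and 70.38 FPKM, with Ti at 0.799 of CTL (0.762 to 0.838).

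Nrp1, the semaphorin 3A co-receptor, was 9.89 FPKM in CTL, 6.20 in Ti and 6.15 with Se-Met. Like Sema3a it was lower in both libraries with particles, at 0.627 of CTL in Ti (0.541 to 0.723), and Ti+Se-Met against Ti gave 0.992 (0.834 to 1.18). Nrp2, the other neuropilin, was 83.40, 47.79 and 70.44 FPKM, so that Ti was 0.573 of CTL (0.552 to 0.595) and Ti+Se-Met 1.47-fold of Ti (1.41 to 1.54). Of the A-type plexins, which carry the signal into the cell, Plxna3 was 10.99, 5.41 and 6.57 FPKM, with Ti at 0.492 of CTL (0.443 to 0.546). On the log2(FPKM + 1) scale this was −0.90, short of 2-fold, but as TPM both Plxna3 and Nrp2 passed 2-fold in that comparison. Plxna1 was 36.29, 38.00 and 35.31 FPKM, and its Ti-to-CTL fold of 1.05 (1.01 to 1.09) turned to 0.892 as TPM and 0.975 with upper-quartile scaling. Plxna2 was 2.11, 2.26 and 2.26 FPKM, and Plxna4 was not listed.

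On the parathyroid hormone side, Pthlh, the local ligand of PTH1R, was 1.98, 2.44 and 2.96 FPKM, and the fold between Ti+Se-Met and CTL of 1.49 (0.944 to 2.31) included equality. The RAMP proteins, membrane partners of the receptor class to which PTH1R belongs, differed most in the list. Ramp2 was 16.22 FPKM in CTL, 4.82 in Ti and 2.63 with Se-Met, with Ti at 0.297 of CTL (0.226 to 0.389) and Ti+Se-Met at 0.162 of CTL (0.104 to 0.237). Ramp3 ran the other way, at 0.46, 5.29 and 7.55 FPKM, with Ti 11.5-fold above CTL (5.35 to 29.5) and Ti+Se-Met 16.4-fold above CTL (7.67 to 42.3). The Ramp3-to-Ramp2 quotient was 0.0284 in CTL (0.0112 to 0.0592), 1.1 in Ti (0.789 to 1.52) and 2.87 in Ti+Se-Met (1.88 to 4.64). No 2 of these intervals overlapped, and the more abundant of the pair differed between CTL and Ti+Se-Met.

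**Figure D3:**
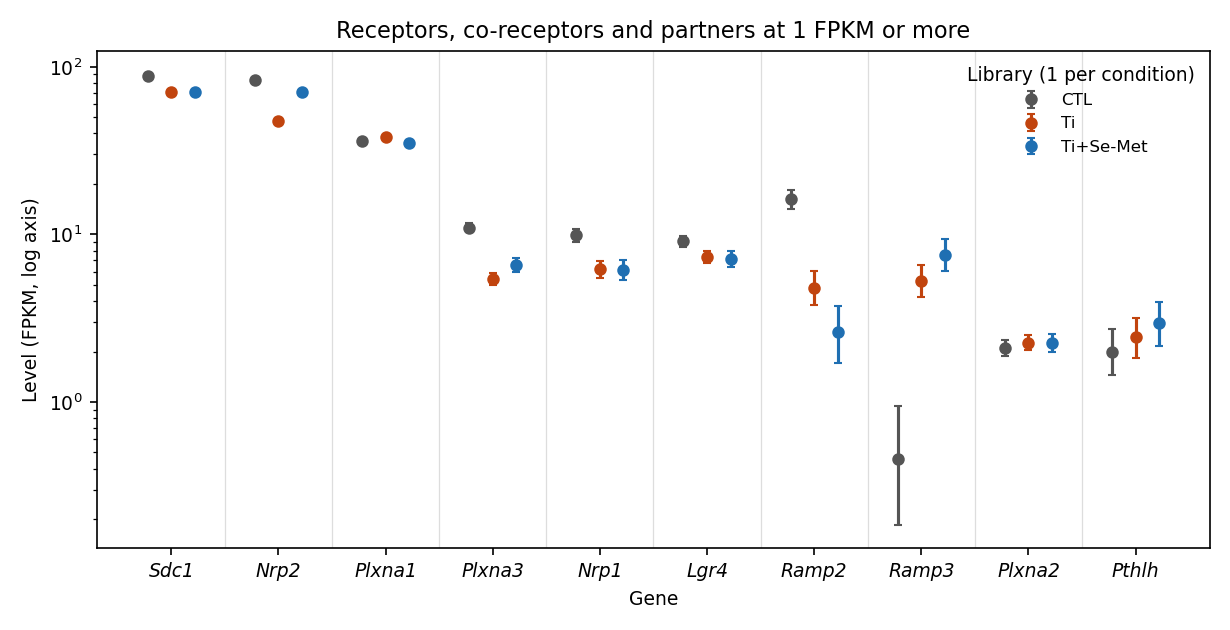
Levels in FPKM on a log axis of receptors, co-receptors and partners that reached 1 FPKM, 1 point per library with 95% counting intervals. Ramp2 (16.22, 4.82 and 2.63 FPKM, in the order of the legend) and Ramp3 (0.46, 5.29 and 7.55) ran in opposite directions, while Nrp1 and Plxna3 were lower in both libraries with particles.

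Membrane-bound RANKL and M-CSF are cut from the cell surface by metalloproteinases. Of the 9 listed genes for these enzymes and their inhibitors, 7 passed 1 FPKM. In Ti against CTL, 1 was at least 2-fold higher and 1 lower (median log2 difference −0.09), none passed between Ti+Se-Met and Ti, and 1 was higher and 1 lower in Ti+Se-Met against CTL (median −0.31). The 2 that passed are inhibitors, not shedding enzymes. Timp1 was 49.72, 202.48 and 173.09 FPKM, with Ti 4.07-fold above CTL (3.7 to 4.49). Timp3, an inhibitor of ADAM17 among others, was 350.87, 131.42 and 154.82 FPKM, with Ti at 0.375 of CTL (0.365 to 0.384).

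The enzymes themselves differed less. Mmp14, a membrane protease that sheds RANKL, was 228.84, 285.48 and 284.59 FPKM, with Ti 1.25-fold above CTL (1.21 to 1.28) but 1.06-fold as TPM. Adam10, a surface sheddase, was 64.17, 39.32 and 43.94 FPKM, with Ti at 0.613 of CTL (0.583 to 0.644). Adam17, which releases M-CSF, was 21.58, 20.24 and 17.24 FPKM, and Ti against CTL was 0.938 (0.868 to 1.01).

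Known regulators of Tnfsf11 and Tnfrsf11b were taken as a list of 25 genes, of which 23 were in the table and 20 passed 1 FPKM. In Ti against CTL, 3 were at least 2-fold higher and 2 lower (median −0.14). None passed between Ti+Se-Met and Ti (median 0.01), and 2 were higher and 1 lower in Ti+Se-Met against CTL (median −0.02). Vdr, the vitamin D receptor, was 10.34, 22.08 and 14.67 FPKM. It was thus high in Ti, 2.14-fold CTL (1.94 to 2.35), and in Ti+Se-Met 0.664 of Ti (0.604 to 0.73). On the log2(FPKM + 1) scale Vdr no longer passed 2-fold for Ti against CTL under each of 3 other scalings. Its fold without the added 1 was 2.07 (1.88 to 2.28) with median-of-ratios scaling. It was 1.99 (1.81 to 2.19) with upper-quartile scaling and 1.82 (1.65 to 2.01) as TPM.

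Osmr, the oncostatin M receptor, was 10.96, 26.16 and 24.96 FPKM. Atf4, a stress-response transcription factor active in osteoblasts, was 91.03, 219.82 and 207.00. Both stood above CTL in both libraries with particles, by 2.39-fold (2.19 to 2.61) and 2.41-fold (2.29 to 2.54) in Ti. Nr3c1, the glucocorticoid receptor, was 58.74, 27.93 and 28.33 FPKM, with Ti at 0.475 of CTL (0.453 to 0.499). Lifr, the leukaemia inhibitory factor receptor, was 14.42, 5.73 and 6.73 FPKM, with Ti at 0.397 of CTL (0.344 to 0.458). For these 4 genes the 2 libraries with particles lay close together and apart from CTL, as they did for Sema3a and not for Tnfrsf11b. These genes were named for passing 2-fold against CTL, and not all regulators shared their pattern. Runx2 was 26.77, 17.14 and 22.97 FPKM, and Esr1 was 1.06, 0.52 and 1.01 on an estimated 51, 26 and 36 fragments. Both lay nearer to CTL than to Ti with Se-Met, as Tnfrsf11b did. Others lay nearer to Ti, such as Ctnnb1 at 252.77, 195.86 and 199.48 FPKM.

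Downstream of PTH1R, 27 signalling genes were listed and 26 passed 1 FPKM. In Ti against CTL 2 were at least 2-fold higher and none lower (median 0.07), between Ti+Se-Met and Ti none passed (median 0.06), and 1 was higher in Ti+Se-Met against CTL (median 0.11). Both are orphan nuclear receptors that respond early to cAMP and to many other stimuli. Nr4a1 was 3.11, 13.20 and 12.88 FPKM, with Ti 4.24-fold above CTL (3.42 to 5.32). Nr4a2 was 1.47, 4.2 and 2.35 FPKM, 2.86-fold above CTL in Ti (2.18 to 3.84) and in Ti+Se-Met 0.56 of Ti (0.43 to 0.728).

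Other secreted factors that stimulate osteoclasts, with the enzyme gene Ptgs2 counted among them, numbered 19, of which 18 were listed and 15 passed 1 FPKM. In Ti against CTL 3 were at least 2-fold higher and 1 lower (median 0.0), in Ti+Se-Met against Ti 1 was higher (median 0.08), and in Ti+Se-Met against CTL 4 were higher and 1 lower (median 0.24). Spp1 (osteopontin) was 1261.19, 3705.78 and 4659.49 FPKM, with Ti 2.94-fold above CTL (2.89 to 2.98). Vegfa, the angiogenic growth factor, was 31.22, 94.37 and 79.08 FPKM. Tgfb1, a growth factor stored in bone matrix, was 10.98, 24.96 and 28.87. All 3 were lowest in CTL. Ccl5, a chemokine, was 20.03, 3.86 and 4.04 FPKM, with Ti at 0.193 of CTL (0.118 to 0.311).

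Ptgs2 encodes cyclooxygenase 2, an enzyme on the path to prostaglandin E2, which induces Tnfsf11. It was 6.10 FPKM in CTL, 13.00 in Ti and 51.82 with Se-Met. Of the list of stimulating factors it alone passed 2-fold from Ti to Ti+Se-Met, at 3.99-fold (3.68 to 4.32). Its Ti-to-CTL difference was 0.98 on the log2(FPKM + 1) scale, just short of 2-fold. The level was thus lowest in CTL and highest with Se-Met, an order shared with neither Tnfrsf11b nor Sema3a.

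Other restraining factors numbered 22, of which 16 were listed and 12 passed 1 FPKM. In each comparison 1 was at least 2-fold higher, and in Ti against CTL 1 was lower. The medians were −0.45 for Ti against CTL, 0.19 for Ti+Se-Met against Ti and −0.31 for Ti+Se-Met against CTL. Sema7a, the higher gene in all 3, was 0.82, 4.05 and 9.42 FPKM, with Ti 4.94-fold above CTL (3.47 to 7.33) and Ti+Se-Met 2.33-fold above Ti (1.94 to 2.81). It is a membrane-anchored semaphorin that acts through integrins and plexin C1 and has been tied to osteoclast fusion as well, so its place among restraining factors is uncertain. Thbs1, a matrix glycoprotein with roles on either side, was 79.98, 34.11 and 55.79 FPKM, with Ti at 0.426 of CTL (0.408 to 0.446).

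Over the 6 lists together, 106 of 118 genes were listed and 91 passed 1 FPKM. Past 2-fold lay 11 higher and 6 lower genes for Ti against CTL (18.7% of the 91), 2 higher ones and 0 lower ones for Ti+Se-Met against Ti (2.2%), and 10 higher with 4 lower for Ti+Se-Met against CTL (15.4%). The split between directions depended on the scale: as TPM it was 9 higher and 10 lower in Ti against CTL and 9 and 7 in Ti+Se-Met against CTL. Tgfb1, Osmr and Vdr left the first count on that scale, and Fstl1, Nrp2, Sik1, Plxna3 and Nr4a3 entered it. Over all genes, 3.63% were higher and 3.64% lower for Ti against CTL, and 0.162% and 0.0629% for Ti+Se-Met against Ti. For Ti+Se-Met against CTL the shares were 2.64% and 3.32%. The lists were chosen with the biology of the tissue in view and with earlier results of these data known. Their higher share than among all genes therefore describes them only and was not tested.

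**Figure D4:**
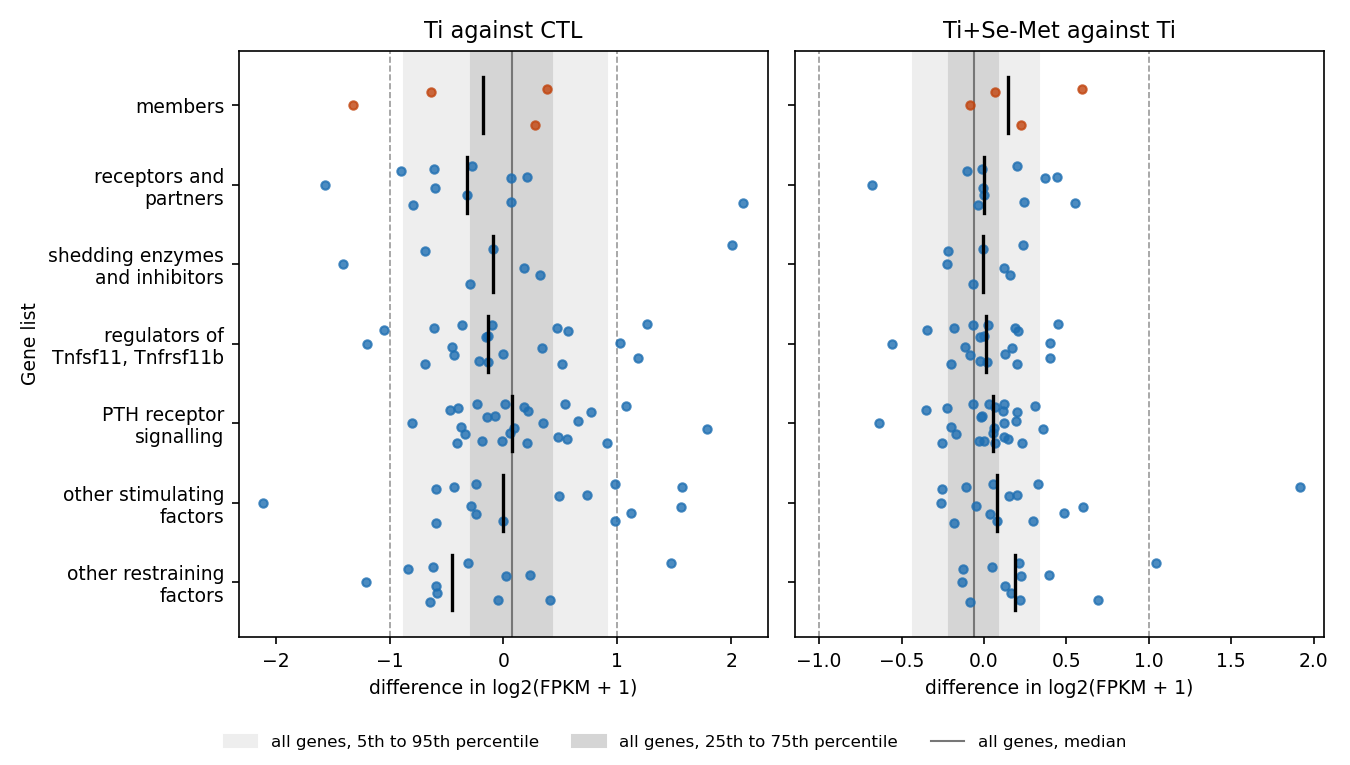
Differences in log2(FPKM + 1) for the 4 genes above 1 FPKM and for the 6 lists around them, for Ti against CTL (left) and Ti+Se-Met against Ti (right). Each point is a gene, black bars are medians, shading shows the spread of all genes and dashed lines mark 2-fold. The medians of all 6 lists lay below the all-gene median of 0.08 on the left. They ran from −0.45 (other restraining factors) and −0.32 (receptors) to 0.07 (PTH receptor signalling). Few genes passed 2-fold on the right.

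The genes whose pair of differences (Ti minus CTL and Ti+Se-Met minus Ti, in log2(FPKM + 1)) lay nearest to each of the 4 genes were sought among 10853 genes with a mean of at least 1 FPKM. With 3 values per gene, likeness is a weak description. Tnfrsf11b had 15 genes within a distance of 0.1, the nearest being Zfp36l1 (0.044), an RNA-decay factor, at 49.41, 30.45 and 46.18 FPKM. Acly, an enzyme of lipid synthesis (0.052), and Pdia4, an endoplasmic reticulum chaperone (0.052), followed. Sema3a had 21 genes within 0.1, among them Nuak1 (0.030), a kinase, at 23.71, 9.10 and 10.89 FPKM, and Irx5 (0.031), a homeobox factor. The patterns of Csf1 and Il34 were common, with 310 and 473 genes within 0.1. Nearest to Csf1 were Retreg1 (0.008), Zfp566 (0.009) and Mcub (0.009), and nearest to Il34 were Prps1 (0.003), Shisa5 (0.004) and Fubp3 (0.005).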

How the data were processed

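RNA of 3 MC3T3-E1 cultures, 1 per condition, was sequenced on an MGI T7 instrument. Per the methods, the authors removed adapter-containing and low-quality reads, aligned the rest with HISAT2, sorted with Samtools and counted with HTSeq. The submitters' processing notes also name StringTie and build mm9. The authors deposited 1 table of FPKM values with 2 decimals. How FPKM was computed and whether strand was used are not given in the sources used here. Values scaled this way depend on the gene length used and on the most abundant genes.

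FPKM values were used as deposited. No test was made, since each condition had 1 library. Differences were taken as log2(FPKM + 1), with a pseudocount of 1, and genes with at least 1 FPKM in at least 1 library (11137 of 15287) were counted past 2-fold. Depth was estimated from 1-fragment steps in the low values of short genes. Eligible were 453 genes with 1 transcript length between 350 and 1000 bases (GENCODE M21), less 150 bases. The fit used 121 (CTL), 93 (Ti) and 91 (Ti+Se-Met) low values. Values lay on a step in 47.1% (CTL), 36.6% (Ti) and 33% (Ti+Se-Met) of cases, against 8.8%, 9.07% and 6.13% by chance. The depth kept was the one with the largest excess over chance. The chance rates do not allow for that search, so the depths are approximate. Lengths were found for 98% of the genes kept. Since the files' build differs from the reference, gene coordinates are not given, and promoter windows were matched by symbol (4 of 6 genes; Tnfrsf11b and Il34 had none). Analyses used scipy 1.17.1, pandas 2.3.3 and numpy 2.4.6 in Python 3.11.15 and were tested on simulated data.

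Genes named were the 6 members, list genes past 2-fold in any comparison, direct receptors, ligands and shedding enzymes, and the 3 genes nearest in pattern to each member, of which 1 is not reported here. Members and lists were chosen with earlier results of these data known. Alternatives were other pseudocounts, filters and thresholds, and scaling by upper quartile, median of ratios or TPM.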

Additional observations from a re-analysis of the deposited data

How the results depend on the processing

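With a threshold of 1.5-fold in place of 2-fold, the number of the 4 factors counted went from 1 to 2 in Ti against CTL (Tnfrsf11b joined Sema3a) and from 0 to 1 in Ti+Se-Met against Ti (Tnfrsf11b). Under that threshold the genes of the 6 lists went from 17 to 38 in Ti against CTL, from 2 to 6 in Ti+Se-Met against Ti and from 14 to 27 in Ti+Se-Met against CTL. With a mean of at least 5 FPKM required, the count for Ti+Se-Met against Ti went from 2 to 1. These shifts follow from the number of genes each setting admits. The share of all genes past 1.5-fold was not computed, so the counts at that threshold have no background beside them. For Ti against CTL the 5th and 95th percentiles of all genes, −0.88 and 0.91, both lay past 1.5-fold. For Ti+Se-Met against Ti they were −0.43 and 0.33, short of it. The differences of the 5 listed genes were recomputed under 5 settings (pseudocounts of 0.1 and 5, and scaling by upper quartile, median of ratios or TPM). Of 75 values 0 changed sign, 10 moved beyond counting error, and Sema3a stayed past 2-fold against CTL in each. Over all genes, the split for Ti against CTL went from 404 higher and 405 lower to 233 and 864 as TPM and 266 and 492 with upper-quartile scaling. For Ti+Se-Met against CTL it went from 294 and 370 to 224 and 819 as TPM. No paired analysis was possible because no condition had more than 1 library, and for the same reason no library could be left out. The Tnfsf11-to-Tnfrsf11b ratio and its alternatives were not run, as Tnfsf11 was not listed. Depth limits Pth1r most, at an estimated 7 to 21 fragments a library.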

Other observations

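The relatives of Sema3a and of its receptors were read as a family, a choice made after values were seen. The 16 listed semaphorins other than Sema3a summed to 48.79 FPKM in CTL, 39.19 in Ti and 49.46 with Se-Met, beside 98.87, 39.01 and 45.83 FPKM for Sema3a alone. Of the 16, 10 passed 1 FPKM. In Ti against CTL 7 of the 10 were below and 3 above equality (median log2 difference −0.32), and Sema7a was the one past 2-fold. Over all genes, 55.3% lay above equality in that comparison, with a median of 0.08. For Ti+Se-Met against Ti 7 of the 10 were above and 3 below (median 0.12), where 38.5% of all genes were above (median −0.06). Sema3b, another secreted class 3 semaphorin, was 16.05, 9.87 and 13.27 FPKM, with Ti at 0.615 of CTL (95% counting interval 0.543 to 0.695) and Ti+Se-Met 1.34-fold of Ti (1.17 to 1.54), and thus nearer to its CTL level with Se-Met than Sema3a was. Sema3c was 2.88, 1.53 and 1.32 FPKM and lower in both libraries with particles. Summed plexins were 172.62, 166.54 and 163.62 FPKM, led by Plxnb2 at 90.53, 87.63 and 82.83, and summed neuropilins 93.29, 53.99 and 76.59. Plxnc1, the plexin that binds SEMA7A, was 0.75, 0.15 and 0.22 FPKM.

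Of the genes of the KEGG osteoclast differentiation pathway, without the 6 factors, 99 were listed and 80 passed 1 FPKM, again a list added after values were seen. In Ti against CTL 7 were at least 2-fold higher (Sqstm1, Socs3, Tgfb1, Fosl1, Junb, Nfatc2 and Fos) and 2 lower (Pik3r1 and Tgfb2), with a median of 0.04, where 3.63% of all genes were higher and 3.64% lower. Between Ti+Se-Met and Ti 0 passed 2-fold, and in Ti+Se-Met against CTL 8 were higher and 2 lower, with a median of 0.07.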
